A study of Saccharomyces cerevisiae with 6 samples.

Results

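The genes of the proteasome were followed through 6 RNA sequencing libraries of Saccharomyces cerevisiae wine yeasts fermenting a synthetic must with or without added SO2. All genes of the deposited table with a PRE, PUP, RPN or RPT number as their standard name were taken, together with SCL1 and SEM1. This gave 35 genes of the 6603 read from the table: 14 subunits of the core particle, 19 subunits of the regulatory particle, and RPN14 and RPN4, which are not subunits. Expression at 25 mg/l SO2 was measured in R008, a vineyard strain, and in the enological strains EC1118, AWRI796 and VL3. Expression without SO2 was measured here in AWRI796 and VL3 only, and none of the 6 libraries was of R008 or EC1118 without SO2. Each strain and SO2 level had 1 library, so no value below has a replicate and no SD can be given. All cultures grew in MS300, a medium modelled on white grape must, at 25 °C, and cells were taken in mid exponential growth, when 6 g/l CO2 had been produced. The sources used here describe the strains by name and type (vineyard or enological), with no further genotype.

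The 26S proteasome is the protease that degrades proteins tagged with ubiquitin. Its core particle is a barrel of outer α rings, which gate the entrance, and inner β rings, which hold the cutting sites. A regulatory particle sits on the barrel: its base of Rpt ATPases unfolds the substrate and feeds it into the core, and its lid carries Rpn11, the enzyme that removes the ubiquitin chain. Rpn4 is the transcription factor that activates the proteasome genes in yeast, through a promoter element called PACE (proteasome-associated control element). Rpn4 is itself quickly destroyed by the proteasome, so that a shortage of proteasomes lets Rpn4 build up and raises the transcription of the subunit genes. The added SO2 forms sulfite, a preservative that reacts with proteins and other cell components.

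The PACE motif was the sequence feature most of these genes shared. The 9-letter motif GGTGGCAAA was searched on both strands of the 300 bases before each start codon in the R64 genome of the laboratory strain, not in the wine strains. It stood before 27 of the 35 genes, against 73 of 6001 promoters searched (1.22%). The 8-letter core GTGGCAAA, which lies inside the longer motif, stood before 30 of the 35, against 159 of 6001 promoters (2.65%). In these 30 genes the core occurred once, between 83 and 182 bases before the start codon (median 125), in the direction of the gene in 22 and on the opposite strand in 8. The genes with neither form were SEM1, RPN10, RPN13, RPN14 and RPN4 itself. Stretches of 60 bases are shown for genes whose levels are discussed below, each written in the direction of its gene with the motif in capitals; PRE6, RPN12 and RPT1 carry it on the opposite strand.
PRE1, chr5:177667-177726 (plus strand): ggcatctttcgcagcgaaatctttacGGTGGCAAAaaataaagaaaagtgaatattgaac
RPN6, chr4:286775-286834 (minus strand): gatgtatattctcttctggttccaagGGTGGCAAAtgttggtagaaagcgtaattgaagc
RPN12, chr6:252382-252441 (plus strand): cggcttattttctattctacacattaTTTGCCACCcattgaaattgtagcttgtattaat
PRE6, chr15:255202-255261 (plus strand): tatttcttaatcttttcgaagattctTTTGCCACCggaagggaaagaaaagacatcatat
RPT1, chr11:174032-174091 (plus strand): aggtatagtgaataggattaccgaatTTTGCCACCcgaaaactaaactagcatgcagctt
The 3 genes with the 8-letter core but not the full motif differ from it in the first letter, and their stretches are shown for comparison, again with the match in capitals.
PRE5, chr13:901537-901596 (plus strand): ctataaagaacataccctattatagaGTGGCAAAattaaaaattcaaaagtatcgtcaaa
PUP1, chr15:631875-631934 (minus strand): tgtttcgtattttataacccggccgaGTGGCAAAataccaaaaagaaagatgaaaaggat
RPN8, chr15:817069-817128 (minus strand): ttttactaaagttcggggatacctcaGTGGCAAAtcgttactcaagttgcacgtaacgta

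The deposited values are RPKM, read numbers corrected for gene length and library size, and are given below after division by 1 scaling factor per library (scaled RPKM). Sequencing depth is unknown, because RPKM hold no read counts. RPKM summed to between 778099 in R008 and 1070965 in AWRI796 with SO2, and scaling factors lay between 0.88 and 1.153. The libraries also differed in some markers of growth state. All 10 stationary phase markers were measured and none was listed at 0; their scaled RPKM summed to 4688 with and 25461 without SO2 in AWRI796, to 3731 with and 3260 without SO2 in VL3, and to 9776 in R008 and 2079 in EC1118. Most of the sum in AWRI796 without SO2 came from HSP12, HSP26 and SIP18, which had 2600, 996 and 513 scaled RPKM with SO2 against 12049, 6372 and 6587 without. As a list the 10 markers had no common direction with SO2: 3 passed 1.5-fold upward and 4 downward in AWRI796 (median log2 change -0.18), and 3 upward and 2 downward in VL3 (median -0.02). Of 132 cytosolic ribosomal protein genes, 129 had values at both SO2 levels in AWRI796 and 131 in VL3, so the sums cover slightly different genes. Those with a value summed to 163287 with and 49545 without SO2 in AWRI796, and to 78163 with and 72363 without SO2 in VL3. The part of these differences in the results below was not tested.

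All 35 genes had a value in all 6 libraries and passed the filter on low values, a mean deposited RPKM of at least 5. Mean levels over the libraries lay between 36.0 scaled RPKM for PRE5, an α ring subunit, and 834 for PRE10, another α ring subunit, although one copy of each is built into every ring. The 33 subunits together summed to 15030 scaled RPKM in R008, 12132 in EC1118, 13943 with and 13878 without SO2 in AWRI796, and 13118 with and 10210 without SO2 in VL3. The VL3 culture without SO2 thus had the lowest sum. The log2 range over the 6 libraries had a median of 0.72 over the subunits, with values between 0.38 for RPN7 and 4.33 for SEM1, against 0.93 over the 5009 genes that had a value in every library and passed the filter.

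**Figure D1:**
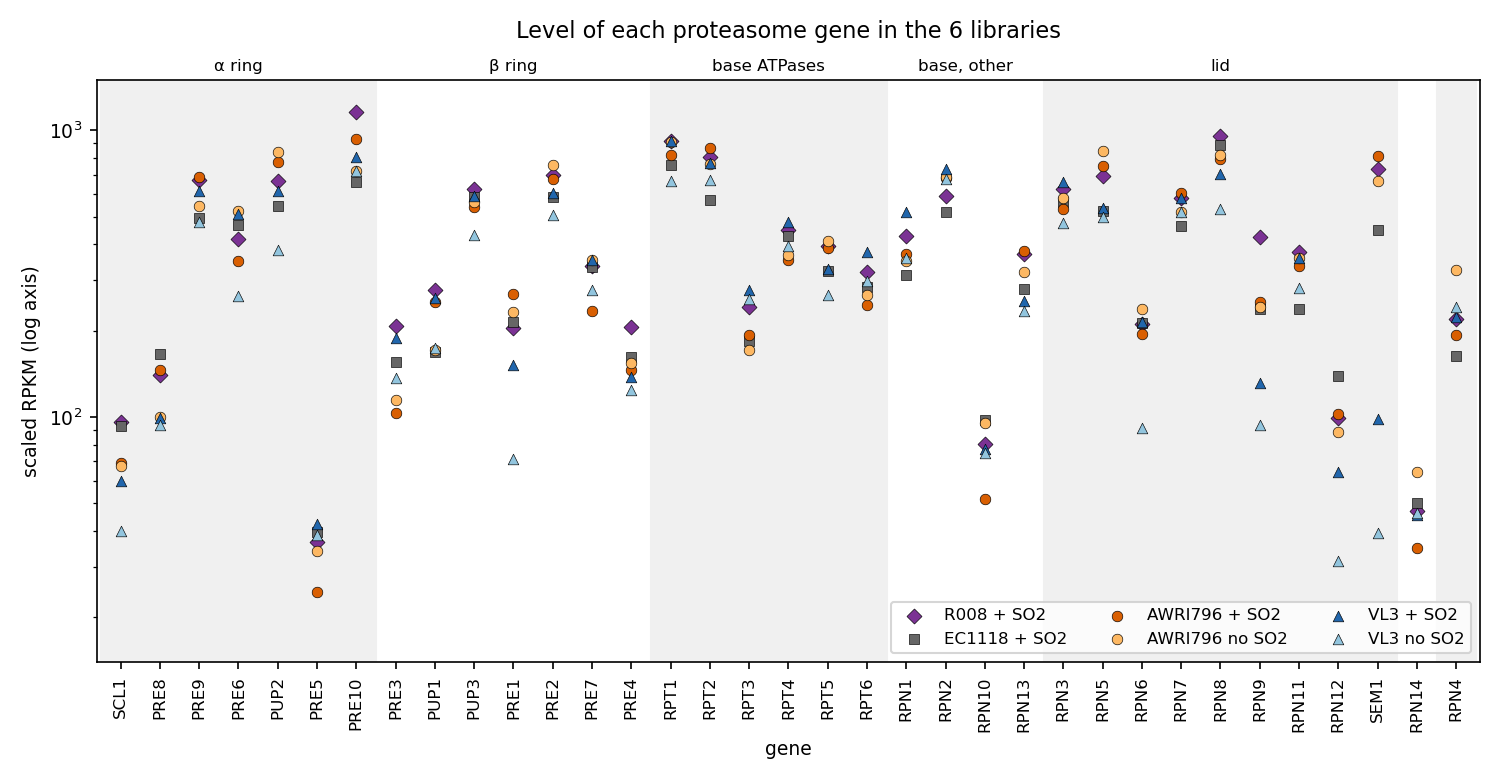
Scaled RPKM (log axis) of the 35 genes in the 6 libraries, grouped by place in the proteasome; each symbol is 1 library. The light triangles of VL3 without SO2 are the lowest symbol for 19 of the 33 subunits, and SEM1 shows the widest spread, from 39.5 to 813.

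With SO2, every subunit gene was higher than without in VL3, by modest amounts, while AWRI796 showed no common direction. In VL3 all 33 subunits had a log2 change above 0, against 49% of all 5150 genes; the median was 0.35 (1.28-fold), with values between 0.04 and 1.30, against -0.01 over all genes. Among the 3024 genes with mean levels in the range of the subunits, 47.6% had a change above 0, with a median of -0.03. In VL3, 6 of the 35 (17.1%) passed 1.5-fold upward with SO2, against 10.7% of all genes, and 0 passed it downward, against 9.86%. In AWRI796 the median change of the subunits was -0.06, against -0.003 over all 5158 genes. There 14 of the 33 were above 0, against 2568 of the 5158. Between -0.3 and 0.3 lay 25 of the 33, and the share of all genes in that band was not counted. None of the 35 genes was at least 1.5-fold higher in AWRI796, against 17.6% of all genes, and 4 (11.4%) were at least 1.5-fold lower, against 15.4%. Those 4 were RPN10, PRE7, RPN14 and RPN4. Without scaling, which moved the median of all genes in VL3 by 0.17 on the log2 scale, 14 subunits passed 1.5-fold there. Cultures were measured in bulk, so a change in every cell and a change in a fraction of the cells cannot be told apart.

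The SO2 change over both strains was then tested with limma, which fitted all genes together with strain as a block. The fit called 0 of the 35 genes at a Benjamini-Hochberg adjusted p under 0.05, and it called 0% of the 5092 genes tested; at an unadjusted p under 0.05 it passed 0 of the 35 and 375 of all genes. The highest mean change among the 35 was that of SEM1, at 0.79 ± 0.37 (SE; limma adjusted p = 0.697). With 1 residual degree of freedom these p-values rest on spread that is mostly pooled over genes. The uniform direction in VL3 rests on 1 library at each SO2 level, and the library without SO2 was the lowest of all 6 for 19 of the 33 subunits (57.6%), against 22.6% of all genes. It was the highest for 0 subunits.

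**Figure D2:**
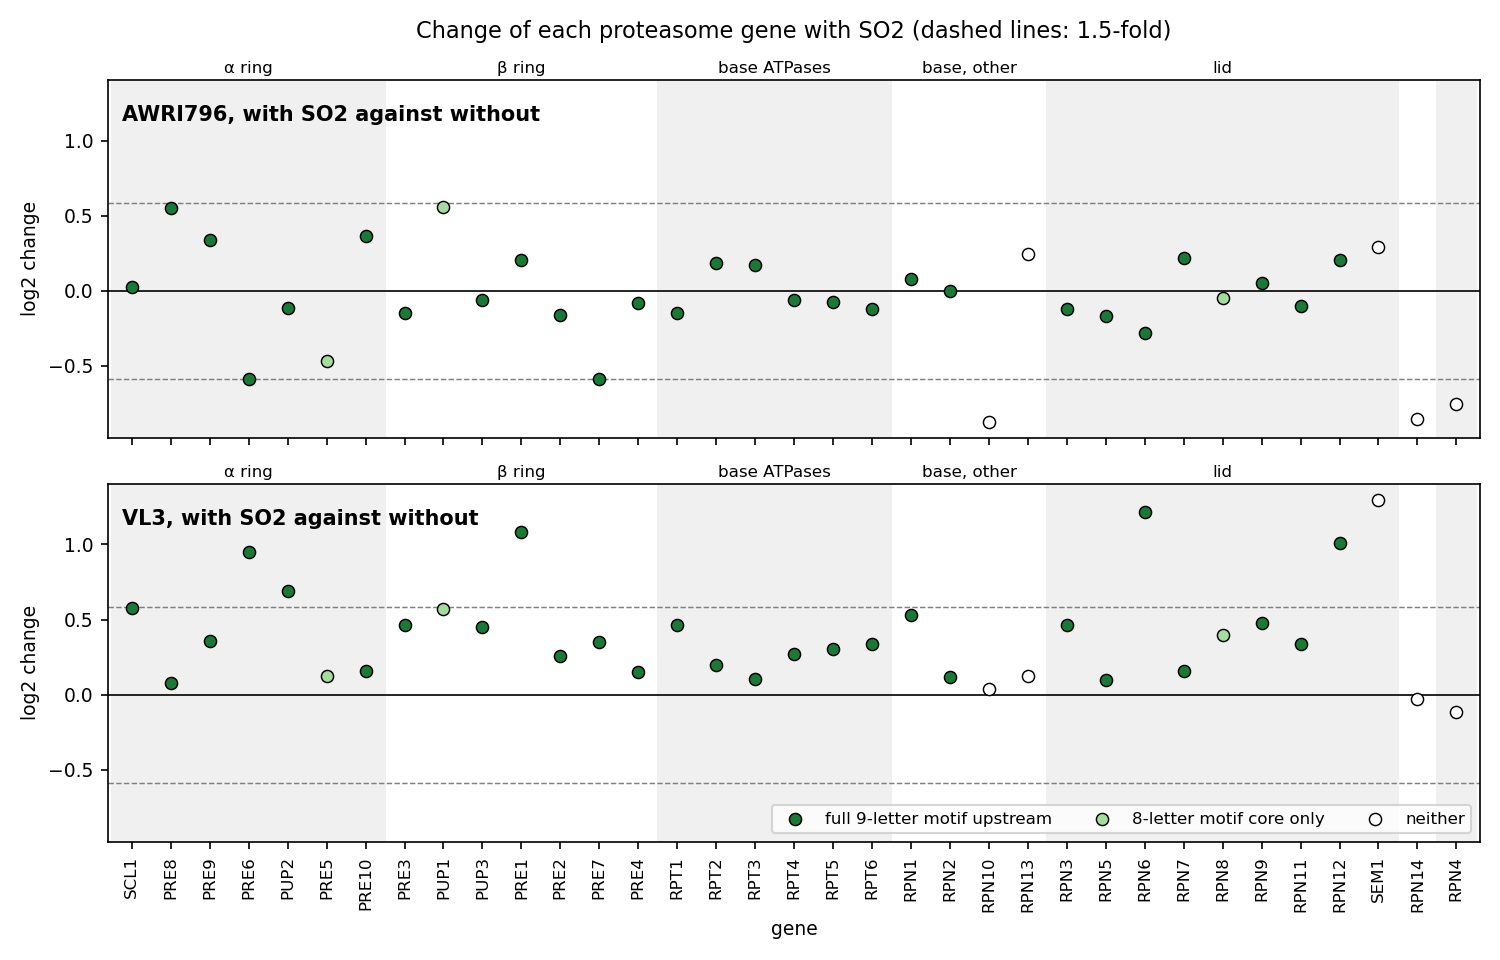
Change of each gene with SO2 as a log2 difference of scaled RPKM + 1, in AWRI796 (top) and in VL3 (bottom), with 1 library at each SO2 level; fill shows whether the promoter holds the full PACE motif, its 8-letter core or neither. In VL3 all 33 subunits lie above 0. In AWRI796 the 3 lowest points, RPN10, RPN14 and RPN4, are genes with neither form, while SEM1 and RPN13, also with neither, lie above 0.

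The α ring has 7 subunits, whose median log2 change with SO2 was 0.03 in AWRI796 and 0.36 in VL3. PRE6 differed most between the strains. It had 350.0 scaled RPKM with SO2 against 525 without in AWRI796, and 510 with against 263 without in VL3; R008 had 419 and EC1118 467. Its log2 change was thus -0.58 in AWRI796 and 0.95 in VL3, a difference that was not tested. PUP2 had 617 scaled RPKM with SO2 against 383 without in VL3 (1.61-fold), and 779 with against 842 without in AWRI796. SCL1 had 59.9 with SO2 against 39.9 without in VL3, just under the 1.5-fold mark, and 69.1 against 67.7 in AWRI796. These 3 genes were lowest of all libraries in VL3 without SO2, as were PRE8 and PRE9. PRE8 had the larger change in AWRI796: it had 146 scaled RPKM with SO2 against 99.6 without in AWRI796, and 98.8 against 93.5 in VL3. PRE9, the α subunit that yeast can live without, was close to alike in both strains, at 689 with SO2 against 546 without in AWRI796 and 612 against 478 in VL3. PRE5 was the subunit with the lowest mean level, at 24.4 with SO2 against 34.1 without in AWRI796 and 42.5 against 38.8 in VL3. PRE10, the subunit with the highest mean, had 932 against 723 in AWRI796 and 809 against 724 in VL3.

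The β ring also has 7 subunits, with a median log2 change of -0.08 in AWRI796 and 0.45 in VL3. PRE1, a β subunit with no cutting site, had 152 scaled RPKM with SO2 against 71.2 without in VL3 (2.12-fold), and 268 with against 232 without in AWRI796; R008 had 204 and EC1118 215. VL3 without SO2 again stood apart from the other 5 libraries. The subunits that carry the cutting sites were PRE3 (caspase-like), PUP1 (trypsin-like) and PRE2 (chymotrypsin-like). PRE3 had 103 with SO2 against 115 without in AWRI796, and 189 against 137 in VL3. PUP1 was higher with SO2 by the same amount in both strains, at 252 against 171 in AWRI796 and 260 against 175 in VL3, log2 changes of 0.56 and 0.57. PRE2 had 675 against 755 in AWRI796 and 605 against 505 in VL3. The cutting subunits therefore did not share a direction in AWRI796. PRE7 was the β subunit with the lowest change in AWRI796, at 235 scaled RPKM with SO2 against 353 without (log2 change -0.59, just past the 1.5-fold mark), and at 354 with against 277 without in VL3. PUP3 and PRE4 had log2 changes of -0.06 and -0.08 in AWRI796, and of 0.45 and 0.15 in VL3.

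In the base of the regulatory particle, the log2 changes of the 6 ATPases RPT1 to RPT6 lay between -0.15 and 0.18 in AWRI796 and between 0.11 and 0.47 in VL3, and 0 of the 6 passed 1.5-fold in either strain. RPT1, the ATPase gene with the highest mean, had 821 scaled RPKM with SO2 against 909 without in AWRI796 and 920 against 666 in VL3. RPT3, the one with the lowest mean, had 193 against 171 in AWRI796 and 277 against 257 in VL3. Of the 35 genes, only the 6 RPT genes matched another place in the R64 genome. The longest such match of each gene was at most 74.8% identical, and the genes matched were not recorded. The small reading frame YKL145W-A lies inside RPT1 over 93 bases on the same strand, so reads there cannot be told apart. The base also holds the scaffold proteins Rpn1 and Rpn2 and the ubiquitin receptors Rpn10 and Rpn13. RPN10 had the lowest change of all subunits in AWRI796, at 51.9 scaled RPKM with SO2 against 95.6 without (1.83-fold lower), and was near level in VL3, at 77.1 with against 75.1 without. RPN13, the other receptor, went the other way in AWRI796, at 379 against 319, and had 255 against 234 in VL3. RPN2 was the base subunit with the smallest change in AWRI796, at 684 with and 685 without SO2, and RPN1 had a log2 change of 0.08 there and 0.53 in VL3.

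The lid has 9 subunits, with median log2 changes of -0.05 in AWRI796 and 0.47 in VL3. Its largest values in VL3 belonged to SEM1, RPN6 and RPN12. RPN6, a scaffold of the lid that contacts the core particle, had 214 scaled RPKM with SO2 against 91.3 without in VL3 (2.33-fold), and 195 against 237 in AWRI796; R008 had 211 and EC1118 213. Only VL3 without SO2 lay below 195. RPN12, the last subunit to join the lid, had 64.5 with SO2 against 31.5 without in VL3 (2.01-fold), and 102 against 88.8 in AWRI796, with 99.2 in R008 and 139 in EC1118. RPN11, the deubiquitinase, had 336 against 360 in AWRI796 and 358 against 282 in VL3. RPN8, its partner, had 794 against 821 in AWRI796 and 703 against 533 in VL3. The remaining lid genes RPN3, RPN5, RPN7 and RPN9 had log2 changes between -0.17 and 0.22 in AWRI796 and between 0.10 and 0.48 in VL3.

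Core and regulatory particle had near-equal changes with SO2. The median log2 change of the 14 core subunits exceeded that of the 19 regulatory subunits by 0.07 in VL3 and differed from it by -0.02 in AWRI796, where the sign turned with means in place of medians (0.02) and with quantile normalization (0.07). In VL3 the core median was 0.40, with 3 of 14 past 1.5-fold upward, and that of the regulatory particle 0.34, with 3 of 19. In levels, the core median was the lower one in all 6 libraries. It was 308 scaled RPKM against 427 for the regulatory particle in R008, 274 against 323 in EC1118, 260 against 379 in AWRI796 with SO2, 293 against 368 in AWRI796 without SO2, 307 against 378 in VL3 with SO2, and 219 against 299 in VL3 without SO2. As differences of median log2 levels, these were between -0.54 in AWRI796 with SO2 and -0.27 in EC1118. The SD of log2 levels over the members of a particle was wider. It lay between 0.83 (regulatory particle, EC1118) and 1.49 (core, AWRI796 with SO2). The β ring median lay below the regulatory one in all 6 libraries. The α ring median lay above it in EC1118 (467), VL3 with SO2 (510) and AWRI796 without SO2 (525), and below it elsewhere. Genes are not replicates of a particle, so no test was made.

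**Figure D3:**
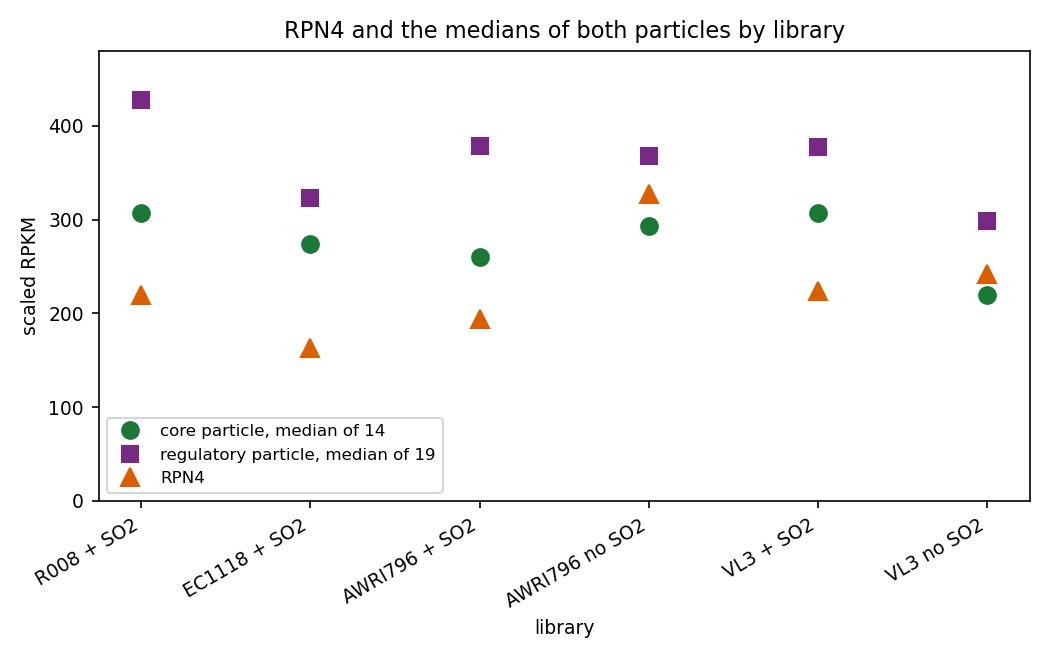
Median scaled RPKM of the 14 core subunits and of the 19 regulatory subunits, and the level of RPN4, in each of the 6 libraries. The core median lies below the regulatory median in each library, and RPN4 is highest in AWRI796 without SO2, at 327.

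RPN4 transcripts were lower with SO2 in AWRI796 and near level in VL3, where the log2 change of -0.11 turned to 0.06 without scaling. RPN4 had 194 scaled RPKM with SO2 against 327 without in AWRI796 (1.68-fold lower) and 224 with against 242 without in VL3, while R008 had 219 and EC1118 163. Its highest level was therefore in AWRI796 without SO2 and its lowest in EC1118, and the levels of R008 and VL3 with SO2 lay close together. Over both strains the log2 change was -0.43 ± 0.34 (SE; limma adjusted p = 0.84). Since Rpn4 is controlled largely through its stability, these transcript levels do not report the amount of the protein. RPN14, a chaperone that helps assemble the base, had 34.9 with SO2 against 64.04 without in AWRI796 (1.81-fold lower) and 45.4 against 46.2 in VL3. The 5 genes without a PACE core, which include RPN4 and RPN14, had a median log2 change of -0.75 in AWRI796. Of them, 3 passed 1.5-fold downward, against 15.4% of all genes, while SEM1 (0.29) and RPN13 (0.24) were higher with SO2. The 30 subunits with a core had a median of -0.06, and 1 passed 1.5-fold downward. In VL3 the medians were 0.04 without and 0.35 with a core. This contrast was seen in these data first and was not tested.

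Other genes with a PACE motif had medians near 0 in both strains. Outside the 35 genes, 45 genes of the table had the full motif before their start codon. Both strands were searched, so these may include genes that share an upstream region, and so a motif, with one of the 35. Such genes were not set apart. Of the 45, 41 could be compared in VL3, where the median log2 change was -0.06 and 18 were above 0. In AWRI796, 40 could be compared, and the median was 0.01. The promoter of RPN4 was searched in the same window for motifs bound by Yap1, Pdr1 and Pdr3, which are among its known activators; a heat shock element was not searched. Neither TTACTAA (Yap1; in 7.82% of all promoters) nor TCCGCGGA or TCCGTGGA (Pdr1 and Pdr3; in 0.2% and 0.45%) was found in these 300 bases. The next gene upstream of RPN4, OSH2, lies 954 bases away, and the bases beyond the window were not searched. Of 6 listed regulators of RPN4, 0 passed 1.5-fold upward and 1 downward with SO2 in AWRI796, and 1 passed upward and 0 downward in VL3. The shares of all genes were 17.6% upward and 15.4% downward in AWRI796, and 10.7% and 9.86% in VL3. PDR3, an activator, had 13.1 scaled RPKM with SO2 against 28.5 without in AWRI796 and 9.11 against 7.49 in VL3. YAP1, the oxidative stress regulator, had 119 against 172 in AWRI796 and 110 against 89.2 in VL3. HSF1, the heat shock regulator, had 6.78 against 9.31 in AWRI796 and 7.55 against 3.67 in VL3. UBR2, the ubiquitin ligase that marks Rpn4 for degradation, had 34.7 against 46.7 in AWRI796 and 43.4 against 63.7 in VL3.

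Between the strains, more proteasome genes stood higher in AWRI796 than in VL3 without SO2 than with it. Without SO2, 11 of the 35 genes (31.4%) were at least 1.5-fold higher in AWRI796 than in VL3, against 19.6% of all 5092 genes, and 0 passed it downward, against 19.2%. Of the 33 subunits, 24 lay above 0, against 49.1% of all genes, with a median log2 difference of 0.35. With SO2, 4 genes passed 1.5-fold upward, against 15.9% of all genes, and 4 downward, against 12.3%; the subunit median was 0.07, and -0.07 with quantile normalization. The library of VL3 without SO2 enters both the SO2 change in VL3 and the first of these strain differences, so they are not separate observations. Without SO2 the lid showed the highest median difference, 0.76, with 6 of 9 subunits at least 1.5-fold higher in AWRI796, and the ATPases the lowest, 0.04. With SO2, the core subunits PRE3 and PRE5 had log2 differences of -0.87 and -0.77, and RPT6 of the base -0.62. RPT3 was lower in AWRI796 at both SO2 levels, at 193 against 277 with SO2 and 171 against 257 without.

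**Figure D4:**
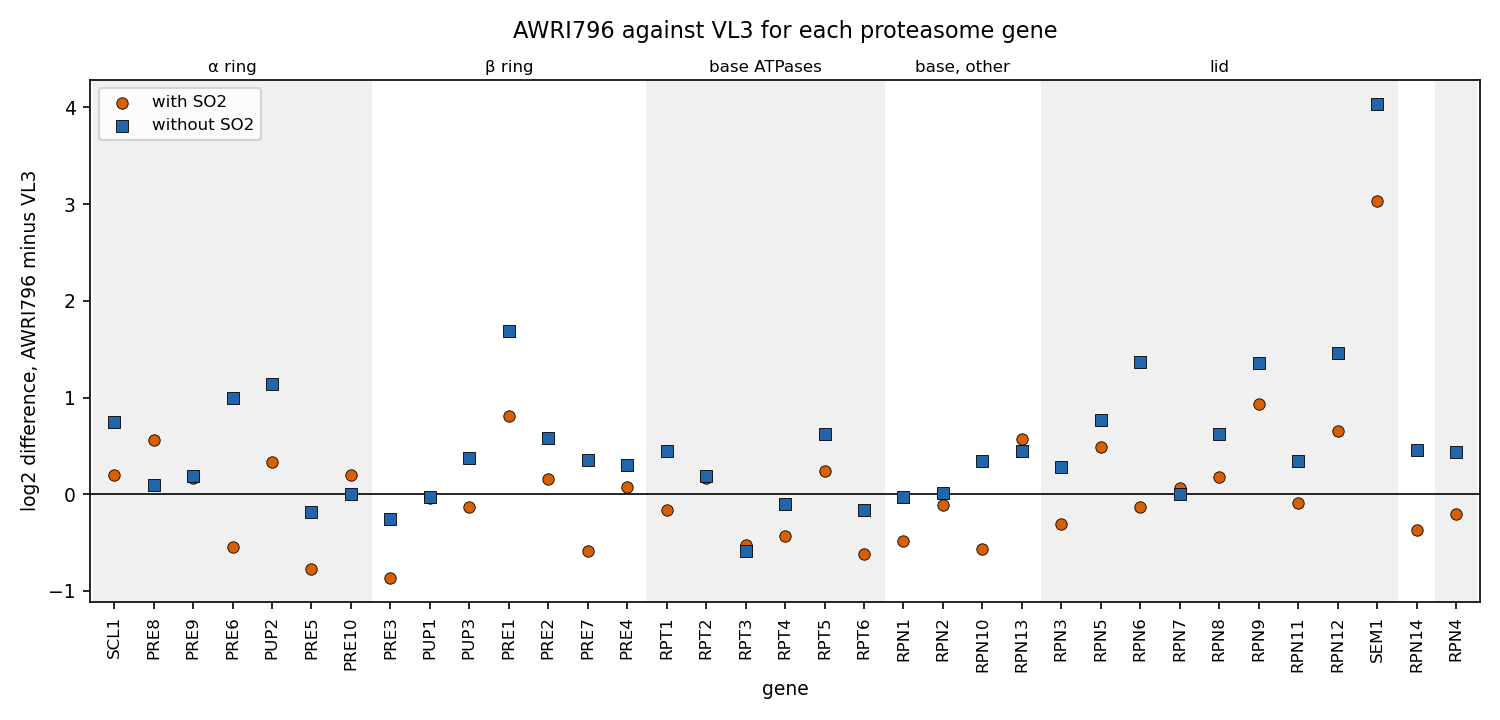
Log2 difference of AWRI796 minus VL3 for each of the 35 genes, with SO2 (circles) and without SO2 (squares), 1 library per strain and SO2 level. SEM1 lies at 3.03 and 4.04, far above the other genes, and the lid genes RPN9 and RPN12 and the β ring gene PRE1 are above 0.6 at both SO2 levels.

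SEM1 was the only one of the 35 genes that passed the test between the strains. Sem1 is a small acidic protein of the lid that also serves in the TREX-2 complex, which links transcription to mRNA export. SEM1 had 813 and 664 scaled RPKM in AWRI796 with and without SO2, against 98.4 and 39.5 in VL3 with and without SO2, while R008 had 734 and EC1118 448. Both VL3 libraries thus lay below all others, and the value with SO2 was 2.46-fold that without in VL3 and 1.22-fold in AWRI796, where quantile normalization left no difference (log2 change 0.000). Over both SO2 levels, AWRI796 exceeded VL3 by a log2 difference of 3.54 ± 0.37 (SE; limma adjusted p = 0.0076), in 2 of 2 comparisons of libraries. The fit called 0.334% of all genes (17 of 5092). The adjusted p of SEM1 lay between 0.0097 and 0.561 under other settings, and was above 0.05 with quantile normalization (0.108) and without the filter on low values (0.561). Its coding sequence of 270 bases, YDR363W-A, is the shortest of the 35 and is shown in full from R64, with the start and stop codons in capitals.
SEM1, chr4:1202128-1202397 (plus strand): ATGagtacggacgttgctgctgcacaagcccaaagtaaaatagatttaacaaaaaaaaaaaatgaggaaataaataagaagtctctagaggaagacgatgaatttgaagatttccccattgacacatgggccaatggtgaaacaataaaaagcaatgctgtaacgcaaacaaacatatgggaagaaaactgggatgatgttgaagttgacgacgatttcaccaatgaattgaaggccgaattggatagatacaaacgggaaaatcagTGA
Short genes more often showed such gaps. Of 187 genes with a coding length of up to 300 bases, 5 passed 4-fold upward and 3 downward in AWRI796 against VL3, averaged over both SO2 levels (4.28%), against 28 and 19 of all 4995 genes with a coding length (0.941%). The nearest genes to SEM1 on the chromosome were low in every library: ESC2 had between 20.6 and 36.7 scaled RPKM, and CDC40 had at most 56.7. The gene models behind each strain's values are unknown here, so a strain difference in a transcript and one in its mapping cannot be told apart.

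Apart from SEM1, the genes with the largest strain differences were RPN9, PRE1 and RPN12. They passed an unadjusted p under 0.05, as did 12% of all genes, but not the adjusted one. RPN9, a lid subunit, had 251 and 242 scaled RPKM in AWRI796 with and without SO2, against 131 and 93.7 in VL3, and was higher in AWRI796 by 1.15 ± 0.32 (SE; limma adjusted p = 0.216). PRE1 was higher by 1.25 ± 0.35 (adjusted p = 0.216, limma) and RPN12 by 1.06 ± 0.32 (adjusted p = 0.258, limma). In 9 of the 35 genes (25.7%) both VL3 libraries lay below the other 4, against 12.8% of all genes. These were SCL1, PRE8, PRE1 and PRE4 of the core and RPN8, RPN9, RPN12, RPN13 and SEM1 of the regulatory particle.

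Among the 4 strains grown with SO2, scaled proteasome transcripts of the vineyard strain R008 were at the top more often than at the bottom. The scaling factors here were 0.88 in R008, 1.004 in EC1118 and VL3 and 1.1 in AWRI796, so scaling raised R008 relative to the others. The counts that follow use scaled values and were not repeated without scaling. Among the genes named below, only RPN9 and PRE4 led in R008 by more than the factors differ. The top place of the others rests on the scaling. In 11 of the 35 genes (31.4%) R008 lay above all 3 enological strains, against 20.1% of all genes, and in 0 it lay below all 3, against 21.2%. Of these 11, 7 belonged to the core (SCL1, PRE10, PRE3, PUP1, PUP3, PRE2 and PRE4) and 4 to the regulatory particle (RPT5, RPN8, RPN9 and RPN11). They include the 3 β subunits with cutting sites and the deubiquitinase gene, by narrow margins. PRE2 had 697 in R008 against 675 in AWRI796, the next highest. For PUP1, PRE3 and RPN11 the next highest was VL3, at 260, 189 and 358 against 278, 207 and 377 in R008. PRE10 had 1155 scaled RPKM in R008, against 661 in EC1118, 932 in AWRI796 and 809 in VL3. RPN9 had 425 in R008, against 238, 251 and 131 in the same strains. PRE4 had 207 in R008, against 161, 145 and 138. The limma test did not separate these genes from the spread between the enological strains. R008 had 1 library, so only sizes are given. The log2 difference of R008 from the enological strains was 1.09 ± 0.45 (SE) for RPN9 and 1.15 ± 0.88 for SEM1.

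The genes that assemble or feed the proteasome gave mixed values. Of all genes, 17.6% passed 1.5-fold upward with SO2 and 15.4% downward in AWRI796, and 10.7% upward and 9.86% downward in VL3. The counts of the short lists below are to be read beside these shares. Of 12 listed assembly factors and activators, 10 could be compared in both strains. With SO2, 0 passed 1.5-fold upward and 2 downward in AWRI796, and 3 passed upward and 0 downward in VL3. UMP1, the chaperone that matures the core, had 163 scaled RPKM with SO2 against 111 without in AWRI796 and 72.3 against 36.6 in VL3. TMA17, a chaperone of the base, had 300 against 578 in AWRI796 and 633 against 382 in VL3, so the strains went opposite ways. HSM3, another base chaperone, had 37.4 against 89.8 in AWRI796 and 51.1 against 39.2 in VL3. Of 5 ubiquitin receptors and proteasome-bound enzymes, 0 passed upward and 2 downward in AWRI796, and 1 upward and 0 downward in VL3. RAD23, which shuttles substrates to the proteasome, had 37.8 against 28.0 in AWRI796 and 49.0 against 23.8 in VL3. HUL5, a ligase that extends chains on the proteasome, had 42.1 against 88.0 in AWRI796 and 117 against 118 in VL3. Of 10 genes of the ubiquitin system and Cdc48, 9 could be compared in each strain; 1 passed upward and 2 downward in AWRI796, and 2 upward and 0 downward in VL3. UBC4, a ubiquitin-conjugating enzyme for abnormal proteins, was the one past 1.5-fold upward in both, at 161 against 85.4 in AWRI796 and 113 against 67.4 in VL3. NPL4 had 73.1 against 43.7 in VL3 and 43.8 against 54.1 in AWRI796. The genes past 1.5-fold downward in AWRI796 were UFD4, at 91.9 against 164, and UFD1, at 85.6 against 135. In VL3 UFD4 had 131 against 174 and UFD1 108 against 103. UBI4, the polyubiquitin gene, had 664 with SO2 and 630 without in VL3, 1532 in R008 and 1405 in EC1118, and no value in AWRI796.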

How the data were processed

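RNA was measured in 6 libraries of 4 strains, prepared after removal of ribosomal RNA for the SOLiD 4 sequencer, per the labels' protocols. The authors deposited RPKM, per the file headers; aligner, counting tool and genome build were not given in the sources used here. Of 6611 lines, 8 shared a systematic name and were left out. Start and end in the table equalled R64 for all 35 genes.

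RPKM were divided by a median-of-ratios factor (4993 genes), and log2(scaled RPKM + 1) was used; fold changes on this scale understate those of low genes. A filter kept genes whose deposited RPKM averaged 5 or more. Within a strain, sizes of change carry no test. limma 3.58.1 in R 4.3.3 (eBayes with trend, two-sided, Benjamini-Hochberg at 0.05 over all genes) was fitted to 4 libraries for SO2 and strain (1 residual and 6.44 pooled degrees of freedom), and to 4 libraries for R008 against the enological strains (2 and 8.54), which assumes that the single R008 library varies like the others. The p-values measure only the spread between these cultures of different strains or SO2 levels. The fits were tested on simulated data. Coding sequences were compared with BLAST+ 2.17.0. Sequences come from the R64 genome of RefSeq. Alternatives were other pseudocounts (0.1 and 5), no scaling, quantile normalization, no filter, a minimum mean of 20, leaving out each enological library, means for medians, and leaving out SEM1.

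The genes, lists and tests were chosen with earlier results of these data known. Genes named with values were RPN4, SEM1, the extremes of each comparison and subcomplex, and up to 4 genes of each further list with the largest change. Some other subunits and UBI4 were named for their roles.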

Additional observations from a re-analysis of the deposited data

Results flagged for a closer look

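The median log2 change of the 33 subunits was -0.06 in AWRI796 and 0.35 in VL3, a difference between the medians of -0.41. Of the 33, 28 had the lower change in AWRI796, and the share of all genes that did was not counted. The VL3 library without SO2, the lowest of all libraries for 19 of the 33 subunits, enters every change in VL3. Among genes that were at the opposite sides of 0 and more than 1 log2 unit apart, PRE6 differed by -1.53 and RPN6 by -1.50. With 1 library per strain and SO2 level no residual spread is left, so these differences were not tested.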

How the results depend on the processing

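All 33 subunits stayed higher with SO2 in VL3 under each of the 6 other settings of pseudocount, scaling and filter, and limma called 0 of the 35 genes for SO2 under each of these and 0 for R008 under these and with each enological library left out. Leaving the values unscaled moved the median of all genes by 0.17 in VL3, by 0.36 in AWRI796 minus VL3 without SO2 and by 0.13 with SO2. The subunit medians then became 0.53, 0.72 and 0.20; 14 subunits, in place of 6, were at least 1.5-fold higher in VL3, and RPN14 and RPN4 turned to 0.14 and 0.06 there. With quantile normalization the subunit median of AWRI796 was -0.20 for SO2, and that of AWRI796 minus VL3 with SO2 turned to -0.067. The strain test called 0 of the 35 genes with quantile normalization and without the filter, in place of 1. With a pseudocount of 5, 1 subunit in place of 2 was at least 1.5-fold lower in AWRI796. The core minus the regulatory particle was -0.58 in AWRI796 without SO2 and -0.41 in EC1118 when means replaced medians, and -0.48 and -0.61 in VL3 with and without SO2 when SEM1 was left out. Its SO2 change in AWRI796 turned to 0.017 with means and 0.066 with quantile normalization. The cause of these shifts was not tested beyond the shift of all genes. Of the other values of this kind, 112 moved by less than 0.1 on the log2 scale, or for counts by at most 1.5 times. Strain was a block in the SO2 test; the labels give no replicate numbers for any further pairing. Unknown depth leaves the counting error of low genes such as PRE5 and RPN14 unmeasured.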
